A study of Homo sapiens with 3 samples.

Results

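HOX genes encode transcription factors with a homeodomain, and they were followed here in YB5 cells treated with decitabine, carboplatin or both drugs. Members were all gene probes whose name in the scanner files is HOXA, HOXB, HOXC or HOXD followed by a number, which gave 52 of 41000 probes and 39 of 18615 genes. The HOXA cluster on chromosome 7 had 11 measured genes, the HOXB cluster on chromosome 17 had 10, the HOXC cluster on chromosome 12 had 9 and the HOXD cluster on chromosome 2 had 9. YB5 cells were cloned from SW48, a human colon cancer line, and carry a methylated, silent GFP transgene under a CMV promoter, so all samples come from 1 clone. Cells received decitabine at 25 nM, carboplatin at 20 µM or both at these doses, as 4 doses on days 1 to 4, and total RNA was taken on day 6. The carboplatin dose is that of the sample labels, and the study's text also gives a different one. Each treatment was measured on 1 dual-colour Agilent array that also carried RNA of control YB5 cells given DMSO, which the sample titles call untreated. Treated RNA was labelled green (Cy3) and control RNA red (Cy5), with no dye exchange, and all 3 arrays lay on 1 slide. Whether the 3 control channels held the same RNA extract is not stated.

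HOX genes lie side by side in their clusters and carry numbers from 1 to 13 along the cluster, and genes of the same number in different clusters are paralogues. In the embryo they are switched on in that order, with low numbers in the hindbrain and high numbers toward the tail, the limbs and the hindgut. In adult tissues, the gut epithelium included, part of this pattern is kept. Polycomb complexes hold silent HOX genes in place through histone H3 lysine 27 methylation, and complexes of the MLL family keep active ones on. HOX proteins bind DNA together with partners of the TALE class, the PBX, MEIS and PKNOX proteins. Decitabine lowers DNA methylation as cells divide by depleting the enzymes that maintain it, and carboplatin forms platinum adducts on DNA.

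With 1 array per treatment there was no replicate of any comparison, so no test was run. Changes are given as log2 of the treated over the control signal of the same array, and a gene was called up or down at a ratio of at least 1.5 in that direction. The technical error was taken from 264 probes spotted 10 times on each array. The SD of their log2 changes was 0.221 on the decitabine-labelled array, 0.0762 on the carboplatin-labelled array and 0.0775 on the combination array. It covers spot-to-spot error and not the spread between cultures. On the decitabine-labelled array spot columns 1 to 9, at the edge, stood apart, with a median change of 0.746 against −0.0188 in the other columns, and without them the SD of that array was 0.0787. HOXB7 and HOXB8 are represented by probes in these edge columns. The arrays are named by their labels, which the genes listed for carboplatin by the study do not follow. Of 145 matched genes listed as raised by carboplatin, 124 were up on the decitabine-labelled array, 19 on the carboplatin-labelled array and 56 on the combination array. Of 53 listed as lowered, 40, 4 and 37 were down in the same order. Of the 71 listed as raised whose probe lies outside the edge columns, 51, 14 and 46 were up. CBX5, the gene of HP1α that the study follows under carboplatin, had −0.67 on the carboplatin-labelled and 0.18 on the decitabine-labelled array, with a probe in the edge columns. No array was reassigned. The arrays are called the decitabine-labelled, the carboplatin-labelled and the combination array below, and values given as a series of 3 follow that order.

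Array probes and promoter sequences are shown before the values. The first set is a pair of array probes made from homeodomain fragments, shown because their names and positions matter for the results. The probe A_24_P914411 is named HOXA10 in the scanner files, but its description is that of a HOXC6 homeodomain and its GRCh37 position is chr12:54423553-54423612, in the HOXC cluster. The probe A_24_P933151 is named HOXB6 and lies at chr17:46673862-46673921. Each is 60 bases long, and in the best alignment without gaps 50 of 59 bases were the same. Capitals mark the longest run that both share, which is 15 bases.
A_24_P914411: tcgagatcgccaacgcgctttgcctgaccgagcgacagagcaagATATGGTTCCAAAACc
A_24_P933151: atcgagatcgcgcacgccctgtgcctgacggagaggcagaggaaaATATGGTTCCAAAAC
The homeodomain is the most conserved stretch of HOX genes, and whether these probes take up RNA of paralogues was not tested. Neither of them represents a gene in the values below, and their own values are given beside those of HOXA10 and HOXB6.

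The second set is the 250 bases before the start of HOX genes, from RefSeq (GRCh38.p14), shown because decitabine acts on the methylation of cytosine in CG dinucleotides. An entry was found for 20 of the 39 genes, with 27 start sites. Capitals mark CG, which reads the same on both strands. HOXA4, HOXA9 and HOXD3 were lower on the decitabine-labelled and combination arrays, and HOXD8 and HOXD1 were not called on any array.
HOXA4, chr7:27130758-27131007 (minus strand): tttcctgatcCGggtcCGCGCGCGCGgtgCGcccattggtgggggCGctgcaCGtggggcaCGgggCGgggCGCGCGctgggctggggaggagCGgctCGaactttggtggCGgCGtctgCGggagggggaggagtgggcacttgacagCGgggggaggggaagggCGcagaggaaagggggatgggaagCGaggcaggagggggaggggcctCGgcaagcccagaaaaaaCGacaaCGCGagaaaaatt
HOXA9, chr7:27165538-27165787 (minus strand): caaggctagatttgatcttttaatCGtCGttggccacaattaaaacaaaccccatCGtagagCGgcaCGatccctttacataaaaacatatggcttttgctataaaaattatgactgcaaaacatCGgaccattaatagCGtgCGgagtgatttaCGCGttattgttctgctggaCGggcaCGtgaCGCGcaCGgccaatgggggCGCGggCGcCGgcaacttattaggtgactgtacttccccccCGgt
HOXD3, chr2:176157057-176157306 (plus strand): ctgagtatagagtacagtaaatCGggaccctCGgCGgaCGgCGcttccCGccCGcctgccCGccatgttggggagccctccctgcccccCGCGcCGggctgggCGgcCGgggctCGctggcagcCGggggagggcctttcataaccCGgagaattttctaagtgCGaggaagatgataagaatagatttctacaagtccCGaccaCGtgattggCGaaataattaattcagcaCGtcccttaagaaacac
HOXD8, chr2:176129455-176129704 (plus strand): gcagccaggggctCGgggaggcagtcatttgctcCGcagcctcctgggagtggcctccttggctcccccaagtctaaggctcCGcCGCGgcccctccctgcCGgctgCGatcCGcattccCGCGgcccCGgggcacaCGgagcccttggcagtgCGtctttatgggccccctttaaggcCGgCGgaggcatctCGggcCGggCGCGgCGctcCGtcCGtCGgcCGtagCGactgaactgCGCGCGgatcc
HOXD1, chr2:176188418-176188667 (plus strand): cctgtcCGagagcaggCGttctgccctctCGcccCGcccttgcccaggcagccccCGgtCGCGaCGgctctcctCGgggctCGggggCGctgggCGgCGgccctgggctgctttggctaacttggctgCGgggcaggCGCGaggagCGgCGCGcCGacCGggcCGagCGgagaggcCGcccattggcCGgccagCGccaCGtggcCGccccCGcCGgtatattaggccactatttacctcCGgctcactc
These windows hold 26 CG in HOXA4, 20 in HOXA9, 21 in HOXD3, 28 in HOXD8 and 31 in HOXD1. The median was 19 CG over the 27 HOX start sites and 11 over 35116 start sites of all genes. Of all these windows, 19.6 % held at least as many CG as that of HOXA4, 32.4 % as that of HOXA9 and 10.9 % as that of HOXD1. By sets, the median was 23.5 CG over the 6 windows of genes called lower on the decitabine-labelled or combination array (8 to 28) and 16.5 over the 14 windows of the other genes detected on all arrays (0 to 40), so the ranges overlap. These sets count start sites and not genes, and many of the 14 windows are other starts of HOXA3, with 0 to 26 CG. The medians of the sets therefore do not compare genes. The methylation of all these windows was not analysed here.

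The windows were also searched for the joint PBX and HOX motif TGATTNAT (N is any base) on both strands. It was present in 871 of 35116 windows, or 2.48 %, and in 2 of the 27 HOX windows, those of HOXA2 and HOXD11. HOXA2 is shown because it was among the genes that were lower, with the motif, here on the opposite strand, in capitals.
HOXA2, chr7:27102684-27102933 (minus strand): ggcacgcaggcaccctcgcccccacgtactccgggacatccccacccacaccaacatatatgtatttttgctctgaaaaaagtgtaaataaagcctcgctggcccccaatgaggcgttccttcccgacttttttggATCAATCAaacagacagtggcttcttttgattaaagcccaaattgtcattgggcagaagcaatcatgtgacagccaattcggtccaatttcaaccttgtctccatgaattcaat
A match of these letters is a description and no measured binding site.

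The control channel was well above background, as called by the scanner software, on all 3 arrays for 30 of the 39 HOX genes (76.9 %), against 71.8 % of all genes. All 11 HOXA genes and 9 of 10 HOXB genes met this, against 6 of 9 HOXC genes and 4 of 9 HOXD genes. By position along the cluster, 7 of 8 genes numbered 1 to 3, 13 of 15 numbered 4 to 8 and 10 of 16 numbered 9 to 13 met it. HOXC4, HOXC11, HOXC12, HOXD11, HOXD12 and HOXD13 were well above background on no array, in either channel. Their changes ran from −0.24 to 0.24 over the 3 arrays, and none was called. Of the 4342 genes whose control channel was well above background on no array, 0 were lower on any array. Higher were 0.967, 0.967 and 1.73 % of them. The lack of calls among these HOX genes therefore says little about their response.

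**Figure D1:**
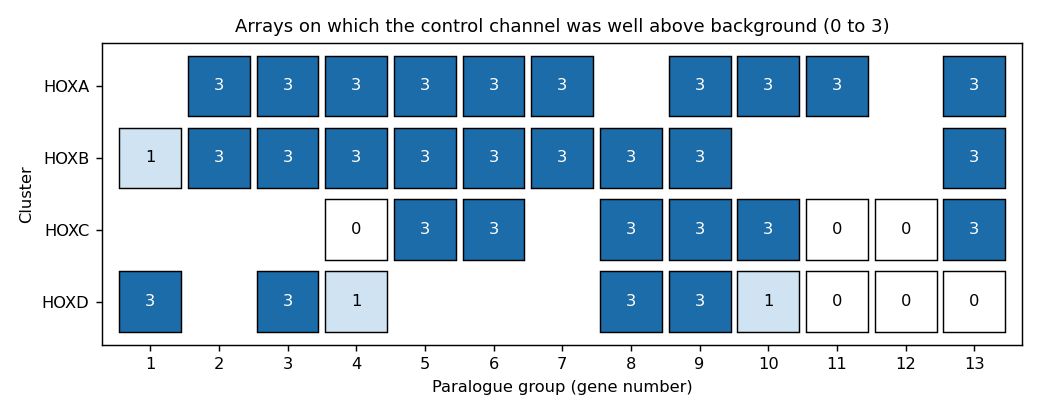
Detection of HOX genes in control YB5 cells. Each box is a gene (not every measured gene is drawn), placed by cluster (rows) and paralogue group (columns), and its number is the count of arrays, out of 3, on which the control channel was well above background. HOXA and HOXB are filled almost throughout, and the boxes with 0 lie in HOXC and at the posterior end of HOXD.

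The remaining 3 genes were detected on a single array. HOXB1, a hindbrain gene, had a control signal of 167.3 units on the decitabine-labelled array, 88.77 on the carboplatin-labelled array and 86.57 on the combination array. HOXD4 had 230 units on the decitabine-labelled array against 89.19 and 104.1. HOXD10 had 207.6 units on the combination array against 83.93 and 86.28. In each case both channels of that array were bright and the change was small, 0.03 for HOXB1, 0.10 for HOXD4 and −0.03 for HOXD10. Of these 3, HOXB1 and HOXD4 were thus seen on the decitabine-labelled array only, and HOXD10 on the combination array only.

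The cells were checked against marker lists. Of 12 colon epithelium markers 10, 9 and 8 were detected, that is well above background in the control channel, on the decitabine-labelled, carboplatin-labelled and combination arrays. Those detected on all 3 included EPCAM, CDH1, VIL1, CDH17, KRT8, KRT18 and CDX2, whereas CDX1 and GPA33 were detected on none. Of 5 mesenchyme markers 2 were detected on each array, VIM and COL1A1, and of 4 blood cell markers 2, 3 and 2 were detected. CD68, a lysosomal protein of macrophages that other cells also make, was detected on all 3 arrays with changes of 0.99, 0.40 and 1.53, CD3E was detected on all 3 with changes from −0.06 to 0.01, and PTPRC was detected on none. Among the epithelial markers 3 were up and 3 down on the decitabine-labelled array, 1 up and none down on the carboplatin-labelled array, and 2 up and 2 down on the combination array. The shares over all genes in that order were 10.6, 2.76 and 7.47 % up and 4.67, 1.49 and 5.93 % down. Of the 3 called up on the decitabine-labelled array, EPCAM (1.33) and KRT8 (2.41) have probes in its edge columns. The 3 down there were CDH1, VIL1 and CDH17, whose probes lie outside those columns. CDH1 had −0.89, 0.04 and −0.85, VIL1 had −0.88, 1.87 and 0.19, and CDH17 had −0.68, −0.48 and −0.87. The treated channel of CDH17 was well above background on the carboplatin-labelled array only. The summed control signal of the list was 128700, 172300 and 164100 units in that order. EPCAM had log2 control levels of 14.05, 15.60 and 15.47 and KRT8 had 12.76, 14.03 and 14.04, whereas outside the edge columns KRT18 had 16.39, 16.43 and 16.36. The part of these lists in the changes of HOX genes was not tested. In RNA of whole cultures, fewer cells that express a gene and less RNA per cell cannot be told apart.

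On the decitabine-labelled array 9 of 39 HOX genes were at least 1.5-fold lower (23.1 %), against 4.67 % of all genes, and 2 were higher, against 10.6 %. Without the edge columns 5.12 % of all genes and 1 of 38 HOX genes were higher on that array. The 9 were HOXA2, HOXA4, HOXA5, HOXA6, HOXA9, HOXB3, HOXB4, HOXB6 and HOXD3, and the 2 were the edge genes HOXB7 and HOXB8. On the combination array 9 were also lower, against 5.93 % of all genes, and none was higher, against 7.47 %. These were HOXA2, HOXA4, HOXA5, HOXA6, HOXA7, HOXA9, HOXB3, HOXB6 and HOXD3. On the carboplatin-labelled array none was called, against 1.49 % of all genes lower and 2.76 % higher.

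All called members were detected in the control channel on all 3 arrays, a class in which calls are more frequent. In that class 9 of 30 HOX genes (30 %) were lower on the decitabine-labelled array and 9 on the combination array, against 6.51 and 8.25 % of all genes in the class. Higher were 2 of 30 on the decitabine-labelled array and none on the combination array, against 14.1 and 9.56 %, the first of these with the edge columns included. On the carboplatin-labelled array none of the 30 was called, against 3.38 % of the class higher and 2.08 % lower. The class holds 13370 genes with a value on the decitabine-labelled array and 13372 on each of the others. The median change of the 30 HOX genes was −0.21, −0.01 and −0.17 on the decitabine-labelled, carboplatin-labelled and combination arrays, against 0.01, −0.02 and −0.01 for all genes of the class. Below 0 were 22, 15 and 23 of the 30 in the same order. The medians were thus shifted far less than the single called genes, since a number of members lay near 0.

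**Figure D2:**
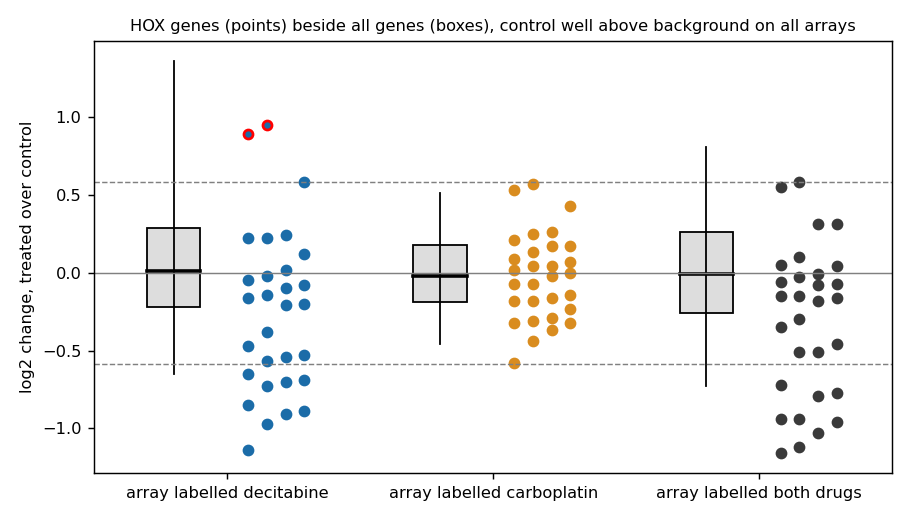
HOX genes beside all genes. Points are the log2 changes (treated over control) of the 30 HOX genes whose control channel was well above background on all arrays, boxes span the 25th to 75th percentile of all genes of that class with the median as a line, whiskers run from the 5th to the 95th percentile, and dashed lines mark 1.5-fold. Red rims mark HOXB7 and HOXB8 in the edge columns. The lowest HOX values lie below the 5th percentile of −0.65 on the decitabine-labelled array and −0.73 on the combination array.

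In the HOXA cluster 5 of 11 genes were lower on the decitabine-labelled array and 6 on the combination array, with medians of −0.57 and −0.72. The median on the carboplatin-labelled array was −0.16. HOXA9, a posterior gene known as a driver of myeloid leukaemia, had log2 control levels of 14.66, 14.57 and 14.50 on the decitabine-labelled, carboplatin-labelled and combination arrays. Its treated levels were 13.52, 13.99 and 13.56. The treated channel was below the control channel on all 3 arrays, and the control levels lay within 0.16 of each other. HOXA9 was thus 2.20-fold, 1.49-fold and 1.92-fold lower, the middle value falling just short of the threshold. Its spot column is the first one beyond the edge columns.

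HOXA4 and HOXA5, central genes of the cluster, had the lowest changes on the combination array among the probes that represent HOX genes, while a second HOXA3 probe, given below, was lower still. HOXA4 had control levels of 10.46, 10.44 and 10.35 and treated levels of 9.48, 10.13 and 9.20 in the same array order. That is 1.96-fold, 1.24-fold and 2.23-fold lower. HOXA5, needed for lung development, had control levels of 12.28, 11.99 and 12.15 and treated levels of 11.38, 11.55 and 11.03. It was 1.86-fold, 1.36-fold and 2.17-fold lower. For both genes the combination array held the lowest treated level and the carboplatin-labelled array the highest.

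HOXA2, a hindbrain and neural crest gene, had control levels of 8.61, 8.50 and 8.61 and treated levels of 7.88, 8.17 and 7.65. It was 1.66-fold lower on the decitabine-labelled array, 1.25-fold on the carboplatin-labelled array and 1.94-fold on the combination array. HOXA6 was 1.62-fold, 1.12-fold and 1.71-fold lower. HOXA7 was called on the combination array only, with 1.65-fold lower signal, against 1.44-fold on the decitabine-labelled array and a change of 0.13 on the carboplatin-labelled array. The difference of HOXA7 between the combination and decitabine-labelled arrays was −0.19, under 2 SD of repeated spots, so the threshold alone separates these calls. All 4 central HOXA genes (HOXA4 to HOXA7) were lower on the combination array, with a median of −0.94.

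The other HOXA genes were not called. HOXA10, which patterns the uterus, fell just short of the threshold on the decitabine-labelled array at −0.57, and had 0.02 and −0.51 on the carboplatin-labelled and combination arrays. Its second probe on chromosome 7 gave −0.66, −0.17 and −0.50. HOXA13, a gene of the limb and hindgut, had −0.38, −0.23 and −0.51 by its brightest probe and −0.01, 0.32 and 0.11 by its second, so its probes pointed opposite ways on the carboplatin-labelled and combination arrays. HOXA11 ran from 0.09 to 0.31. Its control signal was 147.8, 135.8 and 124 units, where negative controls had medians of 74.9, 74.4 and 74.1. Under 2 of 9 other settings it was called up on the decitabine-labelled array (at most 0.64). The same number called it up on the combination array (at most 0.71). HOXA3 had −0.16, 0.21 and −0.15. A second HOXA3 probe in the first spot column gave 0.46, −0.58 and −1.19, so its probes pointed opposite ways on the decitabine-labelled and carboplatin-labelled arrays. The homeodomain probe named HOXA10 but placed on chromosome 12 gave 0.96, −0.23 and −0.72, and it too lies in the edge columns.

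**Figure D3:**
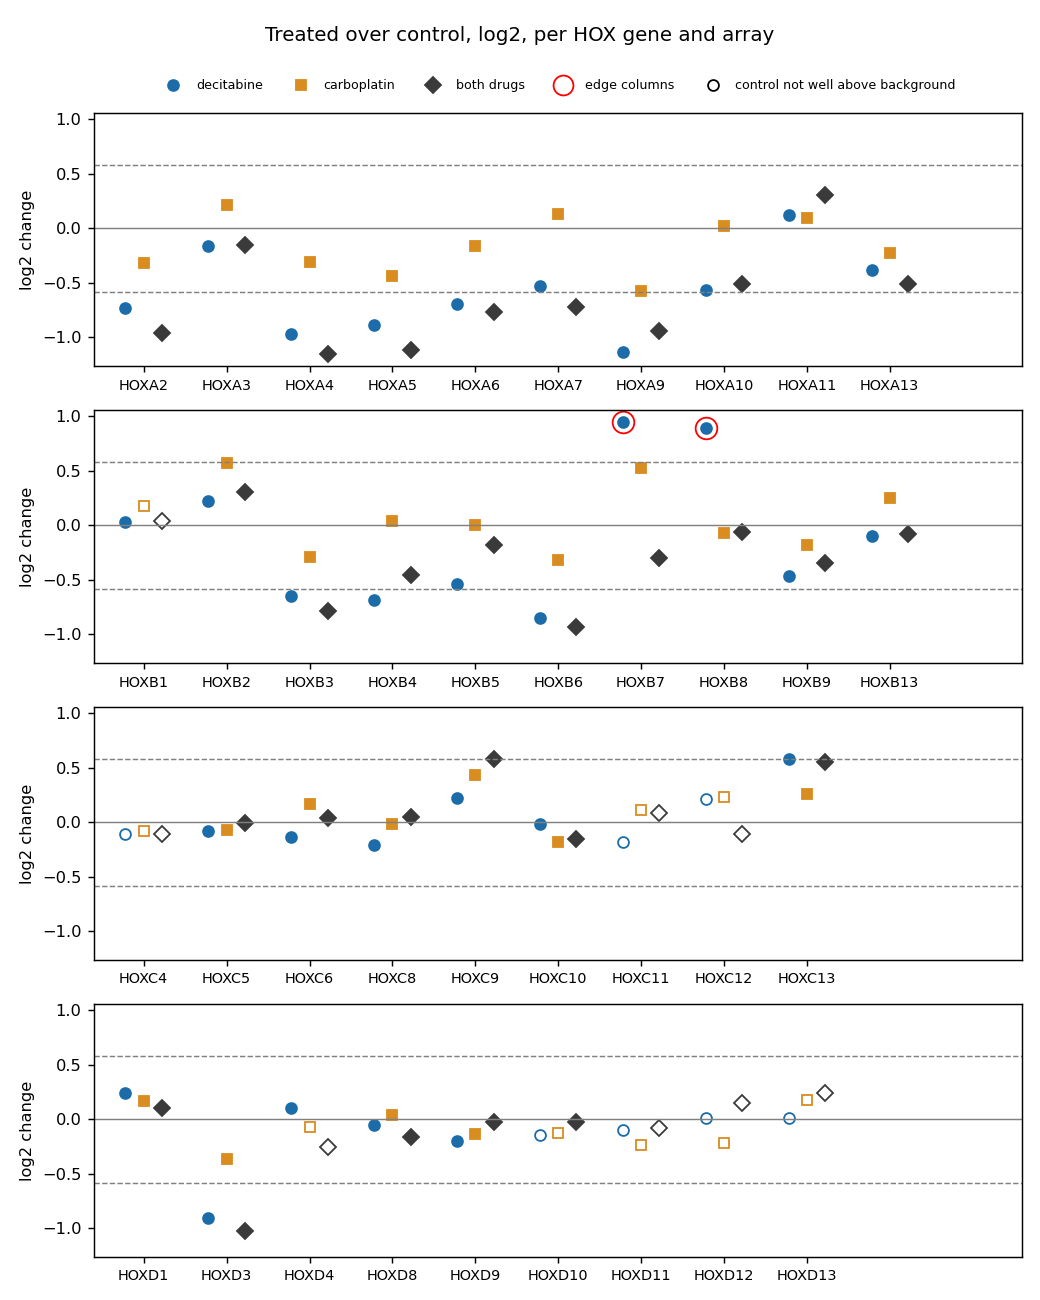
Log2 change (treated over control) of the HOX genes reported here on the 3 arrays, with 1 panel per cluster in the order HOXA, HOXB, HOXC and HOXD and genes in order of their number. Dashed lines mark 1.5-fold in either direction, open symbols a control channel not well above background, and red circles the edge columns of the decitabine-labelled array. HOXA2, HOXA4 to HOXA6, HOXA9, HOXB3, HOXB6 and HOXD3 lie below the lower line on the decitabine-labelled and combination arrays, and most HOXC and HOXD genes lie near 0.

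In the HOXB cluster 3 of 10 genes were lower on the decitabine-labelled array and 2 on the combination array. HOXB6 had control levels of 16.02, 15.77 and 15.92 and treated levels of 15.17, 15.45 and 14.97 on the decitabine-labelled, carboplatin-labelled and combination arrays. It was 1.80-fold, 1.25-fold and 1.92-fold lower. Its homeodomain probe, shown above, gave −0.28, 0.09 and −0.44, which is the same direction on the decitabine-labelled and combination arrays but short of 1.5-fold. HOXB3, a hindbrain gene, was 1.57-fold, 1.23-fold and 1.73-fold lower by its brightest probe. Its other probes gave −0.34, −0.13 and −0.55, and −0.03, 0.13 and −0.21, so that the call rests on 1 probe of 3. HOXB4, known for its part in blood stem cell renewal, was 1.62-fold lower on the decitabine-labelled array, with changes of 0.04 and −0.46 on the carboplatin-labelled and combination arrays. Its second probe gave −0.17, 0.07 and −0.08. The probe that represents HOXB4 lies in the first spot column beyond the edge columns, as does that of HOXA9.

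HOXB5 and HOXB9 were lower without reaching the threshold. HOXB5 had −0.54, 0.00 and −0.18, and HOXB9 had −0.47, −0.18 and −0.35. HOXB2, a hindbrain gene, had 0.22, 0.57 and 0.31, and its second probe, in spot column 5, gave 1.46, 0.36 and 0.18. HOXB13, the most posterior gene of the cluster and a marker of prostate epithelium, had −0.10, 0.25 and −0.08, with 0.14, 0.22 and 0.30 by its second probe.

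The 2 HOX genes called higher on the decitabine-labelled array were both measured in its edge columns. HOXB7 had log2 control levels of 8.09, 9.21 and 9.14 and treated levels of 9.04, 9.74 and 8.84 in the usual array order. Its second probe, outside the edge columns, gave −0.17, 0.01 and −0.53. HOXB8 has 1 probe, with control levels of 9.11, 10.36 and 10.33 and treated levels of 10.00, 10.29 and 10.27. On the decitabine-labelled array the control level of both genes was thus over 1 log2 unit below that of the other arrays. Without the edge columns HOXB7 had a change of −0.15, and no value remained for HOXB8.

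In the HOXC cluster no gene was called on any array, and the medians of its 6 genes detected on all arrays were −0.05, 0.08 and 0.05. HOXC13, a gene of hair follicles and nails, came nearest to the threshold with 0.58, 0.26 and 0.55, just short of 1.5-fold on the decitabine-labelled array. Its control levels were 8.33, 8.27 and 8.32 and its treated levels 8.92, 8.53 and 8.86, so that the treated channel was the brighter one on all 3 arrays. HOXC9 had 0.22, 0.43 and 0.58, which is 1.17-fold, 1.34-fold and 1.49-fold higher. HOXC13 was called up under 4 of 9 other settings on the decitabine-labelled array and 3 of 9 on the combination array. HOXC9 was called up under 4 of 9 on the combination array. HOXC5, HOXC6, HOXC8 and HOXC10 lay between −0.21 and 0.17. The treated channel of HOXC6 was not well above background on the decitabine-labelled array. Control signals were 126.3, 141.3 and 116.7 units for HOXC5 and 128.1, 120.2 and 112.4 for HOXC6. Medians of negative controls were 74.9, 74.4 and 74.1, so a fall of these 2 genes would be hard to see.

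In the HOXD cluster HOXD3 was the only called gene. Its control levels were 9.46, 9.40 and 9.43 and its treated levels 8.55, 9.03 and 8.40 on the decitabine-labelled, carboplatin-labelled and combination arrays. That is 1.87-fold, 1.30-fold and 2.05-fold lower. HOXD1 and HOXD8 lay between −0.16 and 0.24, and the treated channel of HOXD1 was not well above background on the decitabine-labelled array. HOXD9 had −0.20, −0.14 and −0.03, and its treated channel was well above background on no array. Of the group 3 paralogues, HOXB3 and HOXD3 were thus lower on the decitabine-labelled and combination arrays by their brightest probes, whereas HOXA3 was not called. This contrast depends on the probe. The second HOXA3 probe, in the first spot column, gave 0.46, −0.58 and −1.19, and the HOXB3 call rests on 1 probe of 3.

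The arrays were set side by side gene by gene, against the SD of a difference between 2 arrays, which was 0.111 between the combination and decitabine-labelled arrays. Of the 18 detected genes outside the edge columns that were called lower on no array, 7 were lower on the decitabine-labelled than on the carboplatin-labelled array by over 2 SD and 1 was higher. On the combination array 5 were lower than on the carboplatin-labelled array and 2 higher. For the 10 genes called lower on the decitabine-labelled or combination array, such a difference from the carboplatin-labelled array follows from their choice and is not counted here. Between the combination and decitabine-labelled arrays 3 of the 10 differed by over 2 SD. HOXA2 and HOXA5 were lower with both drugs, by −0.23 and −0.22, and HOXB4 was higher by 0.23. Among the 18 other genes, HOXB5, HOXC8 and HOXC9 differed by over 2 SD, each higher with both drugs. The share of all genes beyond the same limits was not computed. These counts therefore describe the HOX genes and show nothing particular to them. The 10 genes were chosen by their values on these same 2 arrays, HOXB4 by the decitabine-labelled array only and HOXA7 by the combination array only. For most of the 10, the values of the 2 arrays lay within 2 SD of repeated spots. Given that choice, this is a description and no separate result.

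**Figure D4:**
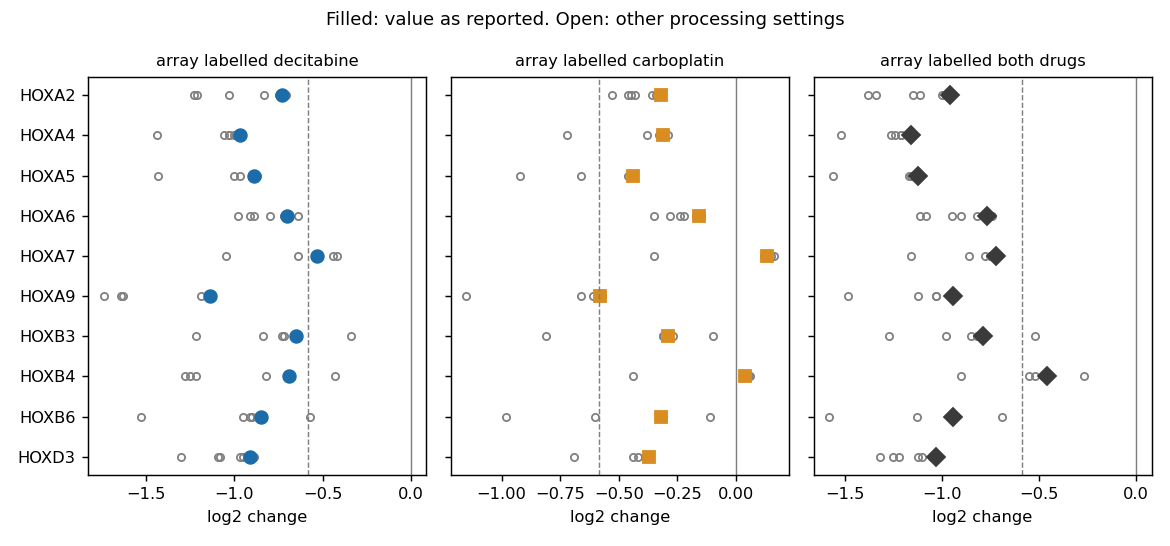
The 10 HOX genes called lower on the decitabine-labelled array or the combination array, under other processing settings. The horizontal axis is the log2 change (treated over control), filled symbols are the values as reported, open circles the values under 9 other settings, and the dashed line marks 1.5-fold lower. On the combination array HOXA2, HOXA4, HOXA5, HOXA6, HOXA7, HOXA9, HOXB6 and HOXD3 stay below the line under every setting shown. All of these except HOXB6 have a single probe, which the mean over all probes cannot change.

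The TALE cofactors that bind DNA with HOX proteins were measured by 9 genes. On the decitabine-labelled, carboplatin-labelled and combination arrays 3, 1 and 3 were lower and none was higher, with medians of −0.40, −0.02 and −0.41. Of all genes 4.67, 1.49 and 5.93 % were lower and 10.6, 2.76 and 7.47 % higher, with medians of 0.01, −0.01 and 0. PBX3 had changes of −0.77, −0.20 and −0.79, and MEIS2 had −0.79, −0.12 and −0.72. MEIS1, the partner of HOXA9 in leukaemia, was well above background on no array.

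Of 18 Polycomb genes 2 were up and 1 down on the decitabine-labelled array, none was called on the carboplatin-labelled array, and 1 was up and 2 down on the combination array. Over all genes the shares in array order were 10.6, 2.76 and 7.47 % up and 4.67, 1.49 and 5.93 % down. EZH2, the histone H3 lysine 27 methyltransferase, had changes of −1.13, −0.17 and −0.90. CBX7 and JARID2, the members called up on the decitabine-labelled array with 1.64 and 1.44, both lie in its edge columns, and they had 0.27 and −0.19 on the carboplatin-labelled array and 0.38 and 0.29 on the combination array. CBX6 was up on the combination array, with 0.68. The median of the Polycomb list was −0.11, −0.01 and −0.20. Of 8 genes of MLL complexes none was called on the decitabine-labelled array and 1 was up on each of the others, the scaffold subunit WDR5 with 0.48, 0.66 and 0.78. Neither of the H3K27 demethylase genes KDM6A and KDM6B was called.

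**Figure D5:**
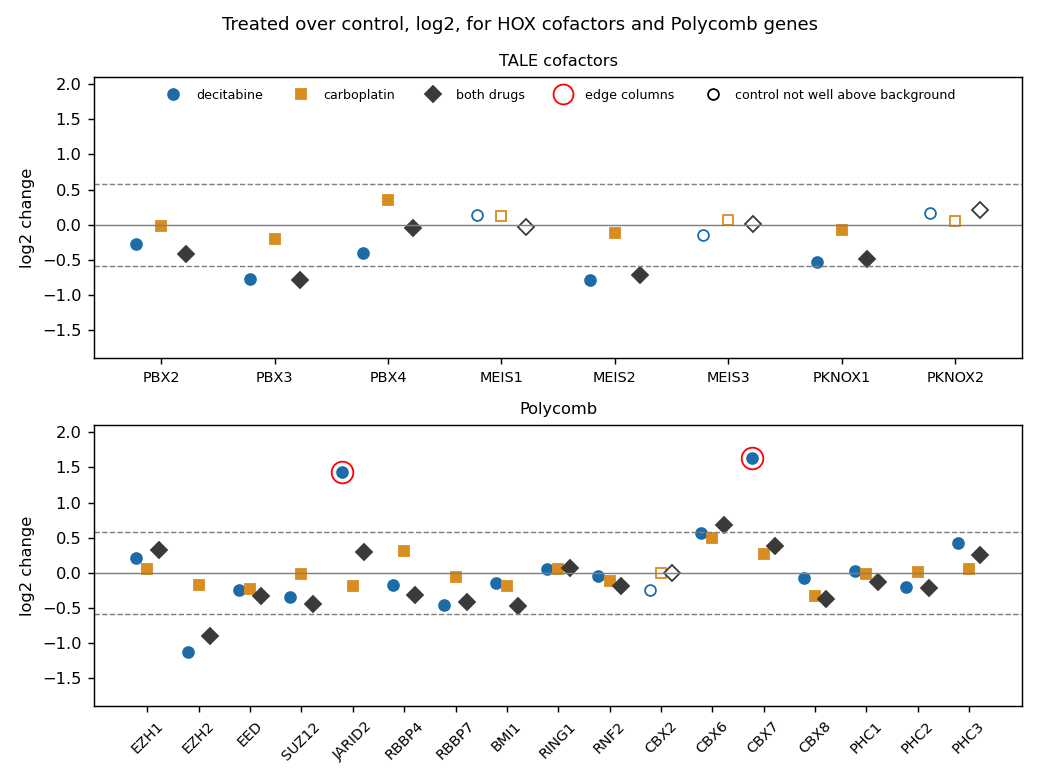
Log2 change (treated over control) of the TALE cofactor genes (upper panel) and Polycomb genes (lower panel) reported here on the 3 arrays. Dashed lines mark 1.5-fold in either direction, open symbols a control channel not well above background, and red circles the edge columns of the decitabine-labelled array. PBX3 and MEIS2 lie below the lower line on the decitabine-labelled and combination arrays, as does EZH2 with −1.13 and −0.90.

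Retinoic acid is a classical inducer of HOX genes, and 16 genes of its synthesis, breakdown and receptors were measured. On the decitabine-labelled, carboplatin-labelled and combination arrays 3, 0 and 2 were up and none was down. Of all genes 10.6, 2.76 and 7.47 % were up and 4.67, 1.49 and 5.93 % down, edge columns included. The reductase gene DHRS3 had 2.66, 0.21 and 1.19 and the hydroxylase gene CYP26B1 had 1.13, 0.06 and 0.14, both with probes in the edge columns. CRABP2, a retinoic acid binding protein whose probe lies outside the edge columns, had 0.72, −0.04 and 0.57. The retinal dehydrogenase gene ALDH1A3, whose probe also lies in the edge columns, had 0.51, 0.15 and 0.89, with no detection in the control channel of any array. The median of the list was 0.04, 0.07 and 0.04. Of 7 measured ParaHox and EVX genes none was called on any array, and CDX2, an intestinal regulator that acts upstream of HOX genes, had −0.03, 0.32 and −0.05. Of 13 measured genes that flank the clusters, 2 were up and 1 down on the decitabine-labelled array, 1 was down on the carboplatin-labelled array, and 1 was up and 3 were down on the combination array. LNPK, beside the HOXD cluster, had −0.88, −0.50 and −0.81. PRAC1, beside the HOXB cluster, had 1.34, −0.02 and 0.09, with its probe in the edge columns. SMUG1 had 0.60, 0.26 and 0.63 and HNRNPA1, which has many pseudogenes and is uncertain for that reason, had −0.50, −0.55 and −0.71, both beside the HOXC cluster. CBX5, beside the HOXC cluster, had −1.22 on the combination array besides the values given above. Of the noncoding RNAs of the clusters, HOTAIR, from the HOXC cluster, was not detected in any control channel, and HOXA11AS, antisense to HOXA11, was detected on all 3 arrays with changes of −0.13, 0.19 and 0.06.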

How the data were processed

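Expression was measured in YB5 cells on 3 dual-colour arrays, 1 per treatment, and arrays were grouped by their sample labels. The members, gene lists and alternatives were chosen with earlier results of these data known. The deposited scanner files give spot intensity as read by Agilent Feature Extraction 9.5.3.1 (per the file headers, while the submitters' processing notes name 8.5.1.1). Mean intensities and local background are as scanned, and the processed signals were background subtracted, detrended and normalized between dyes there. The ratio column deposited beside them is the log10 of red over green. The authors' processed table holds a single log2 ratio for each probe on each array, made by loess with limma and agilp. That it runs as treated over control was read from how it correlates with the scanner values (0.867, 0.838 and 0.936 for decitabine, carboplatin and both drugs).

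Here, with R 4.3.3 and limma 3.58.1, mean signals were corrected by normexp (offset 50) and normalized by loess within arrays. Channel levels came from Aquantile scaling between arrays. Outlier spots (276, 111 and 89 of 43376) and control spots were left out, and spots of a probe were averaged. Of 41000 probes 29381 matched a RefSeq gene, and the brightest probe represented a gene. The steps were tested on simulated data. No test was run, for lack of replicate arrays. Signal over background stands for depth: 69.0, 70.3 and 68.2 % of spots were well above background in the control channel and 65.8, 68.4 and 68.5 % in the treated channel, and the number of arrays limits precision.

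All HOX genes detected in the control channel of all 3 arrays are named with values. Some genes that these rules select are not reported here. Others are named with values where they were called, or where their detection differed between arrays, the latter chosen after their values were seen. Of the context lists, up to 3 called members per list and CDX2 are named. CBX6, CRABP2, SMUG1, HNRNPA1, CDH1, VIL1 and CDH17 were added after their values were seen. Probe positions are GRCh37 as in the scanner files, promoters are RefSeq GRCh38.p14, and the 2 builds were not joined. Exon annotation was not used here. Alternatives were processed signals, no background correction, an offset of 16, median centring, the scanner log ratio, the authors' table, leaving out the edge columns, keeping outlier spots, the mean over probes and other detection calls.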

Additional observations from a re-analysis of the deposited data

How the results depend on the processing

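No paired analysis was possible because each treatment had 1 array. The falls of HOXA2, HOXA4, HOXA5, HOXA6, HOXA9 and HOXD3 on the decitabine-labelled array, and of HOXA2, HOXA4, HOXA5, HOXA6, HOXA7, HOXA9, HOXB6 and HOXD3 on the combination array, stayed past 1.5-fold under all 9 alternatives. Those of HOXB3, HOXB4 and HOXB6 on the decitabine-labelled array and of HOXB3 on the combination array were lost with the mean over all probes, at −0.34, −0.43, −0.57 and −0.52. HOXA2, HOXA4, HOXA5, HOXA6, HOXA7, HOXA9 and HOXD3 have a single probe each, so this alternative could not change their values.

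With median centring in place of loess, which shifted the median of all genes by −0.14, −0.15 and −0.11, the lower genes numbered 16, 7 and 16 on the decitabine-labelled, carboplatin-labelled and combination arrays. The medians then were −0.71, −0.35 and −0.65, and 1 gene was higher on the decitabine-labelled array and 4 on the carboplatin-labelled array. Of all genes 24.1, 19.1 and 21.4 % were then lower and 9.21, 8.99 and 4.34 % higher.

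With processed signals 6 genes were higher and 1 lower on the carboplatin-labelled array, and 6 were higher on the combination array, with a median of −0.31, against 7.59, 6.27 and 13.4 % of all genes. With the scanner log ratio these were 6, 1, 5 and −0.32, against 7.78, 6.14 and 12.9 %. On the decitabine-labelled array 10 of 39 HOX genes were lower with processed signals and 11 with the scanner log ratio. Of all genes 11.8 and 11.4 % were then lower there, against 4.67 % as reported, so the excess of lower HOX genes was smaller. On the combination array 10.7 and 11.3 % of all genes were lower under these 2 settings, against 5.93 % as reported. In the authors' values 1 was higher on each array and 3 were lower on the carboplatin-labelled array, against 6.31, 3.98 and 7.85 % higher and 2.84 % lower of all genes. Without the edge columns 1 gene was higher on the decitabine-labelled array, against 5.12 %. On the combination array 1 gene was higher without background correction and 2 with an offset of 16, against 7.38 and 9.12 %.

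On the decitabine-labelled array HOXB7 turned to −0.15 without the edge columns, and HOXB8 to −0.19 with processed signals, −0.21 with the scanner log ratio and −0.01 in the authors' table. The cause of the other changes was not tested. Detected genes numbered 30 or 32 under other detection calls. Signals near background, as in most posterior HOXD genes, allow no statement on change.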
